A study of Mus musculus with 20 samples.

Results

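Untreated Hepa1-6 cells in medium without growth factors were compared between 6 h and 3 h after time 0. Hepa1-6 is an established hepatoma line from a mouse of the C57L strain, and the labels describe it as an epithelial liver line. The comparison rests on 4 of the 20 arrays, the 2 arrays of untreated cells at 6 h and the 2 at 3 h, chosen by their titles. All cells had been seeded a day earlier in medium with serum, then washed and moved to the depleted medium 4 h before time 0. The untreated cells, whose titles call them basal, received no addition, and the others received 1 ng/ml TGFβ1. Both arms were sampled at 0, 1, 3, 6 and 10 h in biological duplicates of this 1 cell line, which gave 10 groups of 2. Because all cells went through the change of medium, the comparison follows time in that medium and has no counterpart kept in serum. Values are log2 RMA expression values, with 1 probe set for each of 18194 genes, the one with the highest mean over all 20 arrays.

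Cells without serum factors are known to adjust several programmes at once. The hypoxia-inducible factors switch on glycolytic enzymes and stress genes when oxygen is scarce and also respond to metabolic signals. SREBP2 is a membrane-bound factor that is released when sterols run short and then switches on the enzymes that make cholesterol, which serum lipoproteins otherwise supply. FOXO factors are held back by insulin and growth factor signalling and induce genes of growth arrest when that signal is absent. Metallothioneins are small proteins that bind zinc and copper and whose genes respond to the zinc available to the cell.

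Array medians lay between 5.15 and 5.21 on all 20 arrays, duplicates correlated at 0.9958 to 0.9971, and the median standard error (SE) of a difference was 0.13 log2. The hepatoma label was checked against 11 measured markers. Albumin, alpha-fetoprotein and the keratins Krt8 and Krt18 were high at both times (mean log2 values of Alb 12.04 and 12.31, Afp 12.88 and 12.91), whereas the hepatocyte regulator Hnf4a was at 6.57 and 6.498, near the median gene level of 6.31. The medians of 12 stellate cell and fibroblast markers, 12 endothelial markers and 11 macrophage and leukocyte markers were 5.15, 4.07 and 5.06 at 3 h and 4.93, 4.06 and 5.06 at 6 h. None of these markers passed the test of a change from 3 to 6 h, which cannot tell whether such cells were present. The hepatoma list had a median of 6.57 at 3 h and 6.69 at 6 h. Of its 11 markers, 8 lay above the median gene, and the lowest mean was 5.15. Of 8 cholangiocyte markers, with medians of 7.18 and 6.86, 5 lay above the median gene and Epcam alone passed. The proteoglycan Dcn, in the fibroblast list, was high at both times (13.42 and 13.38). Its cell of origin was not tested.

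From 3 to 6 h, 345 genes rose (1.9% of those tested) and 477 fell (2.62%), 822 in all (4.52%), in limma's moderated test with Benjamini-Hochberg adjustment at 0.05. The changes were small. Among the genes that passed, 24 rose and 45 fell by at least 1.5-fold, and 4 rose and 2 fell by at least 2-fold. The rises of at least 2-fold were Bnip3, Ankrd37, Aldoc and Irak1bp1, and the falls were Mt2 and Tjp3. The median difference over all genes was 0.01 log2. Of the genes called, 42% were higher; a further quantile normalization over the 20 arrays gave 454 higher and 416 lower genes, which is 52.2% higher, so the balance between directions depended on the scaling. The counts were also lower when single arrays were left out. Having 1 array fewer by itself tends to enlarge the error, so a lost call does not show that 1 array drove a change. Without array 1 or array 2 at 3 h, 107 or 150 genes were higher and 110 or 209 lower, and without array 1 or array 2 at 6 h, 202 or 147 were higher and 398 or 130 lower. In all 4 of these fits, 69 of the 345 rises and 69 of the 477 falls passed. They are called stable below, which is a stricter cut on the same arrays and not a separate test.

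**Figure D1:**
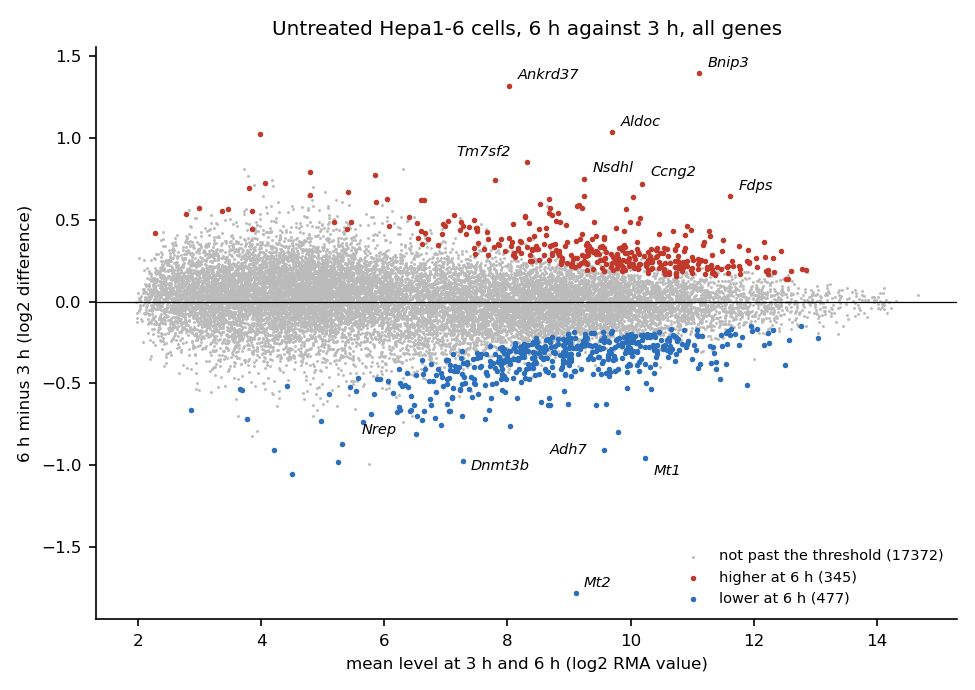
Difference between 6 h and 3 h in untreated cells (log2, y axis) against the mean level at both times (log2 RMA value, x axis) for all 18194 genes. Bnip3, Ankrd37 and Aldoc stand highest and Mt2 lowest; the 345 genes marked red were higher and the 477 marked blue lower at 6 h.

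Many genes of the hypoxia response and of glycolysis were among those that rose. Of 30 measured members of this list, 15 were higher and 1 was lower at 6 h, and 14 did not pass; the median difference was 0.21 log2, beside 0.01 for all genes. Of the 15 rises, 11 were stable. The largest rise on the array was that of Bnip3, a mitochondrial protein that directs the removal of mitochondria by autophagy. Its log2 values were 10.40 and 10.43 at 3 h and 11.78 and 11.84 at 6 h, a 2.64-fold rise with a log2 difference of 1.40 ± 0.09 (SE; adjusted p = 1.68e-08). Ankrd37, a small ankyrin repeat protein induced by hypoxia-inducible factor, stood at 7.30 and 7.44 at 3 h and 8.71 and 8.67 at 6 h, a 2.5-fold rise (1.32 ± 0.14, adjusted p = 2.21e-05). The glycolytic aldolase Aldoc went from 9.12 and 9.25 to 10.26 and 10.19, 2.05-fold (1.04 ± 0.08, adjusted p = 1.83e-07). For these 3 genes both arrays at 6 h lay above both at 3 h. That held for all 345 rises and so adds nothing to the test. Over all 18194 genes, both arrays at 6 h lay above both at 3 h for 4277 and below both for 3943.

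Other members of the hypoxia list rose by less. P4ha1, the catalytic subunit of collagen prolyl hydroxylase, had values of 8.87 and 8.98 at 3 h and 9.60 and 9.55 at 6 h, 1.56-fold (0.64 ± 0.06, adjusted p = 1.42e-06), and the related subunit P4ha2 rose by 0.54 ± 0.06. Ndrg1, a stress-induced cytosolic protein, went from 8.35 and 8.37 to 9.02 and 8.96 (0.63 ± 0.07, adjusted p = 2.21e-05), and the histone demethylase Kdm3a from 8.86 and 8.88 to 9.37 and 9.55 (0.59 ± 0.06, adjusted p = 8.13e-06). Among enzymes and transporters of glucose use, Pfkl (phosphofructokinase of liver type) rose by 0.49 ± 0.07, the glucose transporter Slc2a1 by 0.36 ± 0.06, Aldoa by 0.31 ± 0.07, Tpi1 by 0.19 ± 0.04 and Ldha by 0.14 ± 0.04. Of these 5, Pfkl alone was stable. The remaining rises were Mxi1, a partner of Max that opposes MYC (0.53 ± 0.09), Egln3, a prolyl hydroxylase that marks the hypoxia-inducible factors for destruction (0.48 ± 0.07), and Ddit4, an inhibitor of mTORC1 (0.38 ± 0.04). Pfkfb3, which sets the level of an activator of phosphofructokinase, was the member that fell (-0.39 ± 0.10, adjusted p = 0.0292), and that call was lost in each of the 4 fits without 1 array. The transcript of Hif1a itself differed by -0.11 ± 0.06 (SE; adjusted p = 0.394), and the well-known targets Vegfa (0.25 ± 0.12, adjusted p = 0.29) and Car9 (0.12 ± 0.17, adjusted p = 0.798) did not pass.

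The letters ACGTG are 1 form of the core of the element that hypoxia-inducible factors bind. They were searched on both strands in 300-base windows, from 250 bases before to 50 after the gene start, which RefSeq on GRCm38.p6 gave for 14368 of the genes. ACGTG occurred in the window of 26.2% of all these genes, of 36.8% of the genes that rose and of 26.2% of those that fell, and in 21 of 29 hypoxia list members with a window (72.4%). It overlaps the letters CACGTG, which occurred in 10.3% of all and in 13.8% of the list. GCGTG, which differs from ACGTG in the first letter, was more common in both directions. It occurred in 47.9% of all, 62.2% of the genes that rose, 55.2% of those that fell and 69% of the list. Windows of 3 genes whose rise was stable are shown, with every ACGTG or its reverse complement CACGT in capitals; a match is a description of letters and not a shown binding site. Bnip3 lies on the minus strand at chr7:138909457-138909756, Ankrd37 on the minus strand at chr8:45999801-46000100 and P4ha1 on the plus strand at chr10:59323046-59323345.
Bnip3: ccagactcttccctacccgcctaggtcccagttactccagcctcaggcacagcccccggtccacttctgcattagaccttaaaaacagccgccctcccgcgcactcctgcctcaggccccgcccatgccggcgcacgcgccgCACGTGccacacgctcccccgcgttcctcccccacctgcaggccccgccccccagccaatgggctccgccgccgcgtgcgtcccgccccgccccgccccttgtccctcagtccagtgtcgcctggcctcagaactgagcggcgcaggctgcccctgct
Ankrd37: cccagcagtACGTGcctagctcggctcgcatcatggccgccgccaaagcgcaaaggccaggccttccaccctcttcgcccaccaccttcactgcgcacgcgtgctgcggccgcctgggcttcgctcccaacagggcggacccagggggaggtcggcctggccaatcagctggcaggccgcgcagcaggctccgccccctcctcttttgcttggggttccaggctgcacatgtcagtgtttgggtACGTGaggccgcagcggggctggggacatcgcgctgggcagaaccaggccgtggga
P4ha1: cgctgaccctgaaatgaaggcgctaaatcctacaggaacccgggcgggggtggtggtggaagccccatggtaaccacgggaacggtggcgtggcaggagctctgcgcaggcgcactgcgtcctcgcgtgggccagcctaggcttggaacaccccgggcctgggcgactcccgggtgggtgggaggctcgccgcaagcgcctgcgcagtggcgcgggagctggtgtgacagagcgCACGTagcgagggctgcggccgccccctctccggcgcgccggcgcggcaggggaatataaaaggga
Positions are those of a match's first base, counted as negative before the start and from 1 after it. The 2 matches of Bnip3 overlap in 1 palindrome, those of Ankrd37 begin at -241 and -6, and P4ha1 has 1, at -16, as the reverse complement. Kdm3a, Pfkl and Tpi1 rose without ACGTG in this window, and Hif1a, Egln1, Hk1 and Pgk1, among others, had ACGTG and did not pass the test.

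Most measured genes of cholesterol synthesis rose. Of 21 measured members of the sterol list, 13 were higher, none was lower and 8 did not pass; 20 had a positive difference and the median was 0.32 log2, beside 0.01 for all genes. Of the 13 rises, 9 were stable. Tm7sf2, a sterol reductase of the late pathway, had log2 values of 7.82 and 7.96 at 3 h and 8.73 and 8.75 at 6 h, 1.81-fold (0.85 ± 0.08, adjusted p = 2.03e-06). Nsdhl, which removes methyl groups from the sterol core with its partners, went from 8.81 and 8.92 to 9.57 and 9.67, 1.68-fold (0.75 ± 0.09, adjusted p = 4.00e-05). Fdps, which makes farnesyl pyrophosphate, went from 11.28 and 11.31 to 12.001 and 11.88, 1.56-fold (0.64 ± 0.06, adjusted p = 6.19e-06). Each of these genes had both arrays at 6 h above both at 3 h, as all 345 rises had. The second probe set of Fdps had a mean level of 2.20, and with the mean of both probe sets the adjusted p of Fdps was 0.146. With the mean of a gene's probe sets, 8 of the 13 rises passed; besides Fdps, the stable rises of Fdft1 (adjusted p = 0.105) and Lss (0.209) and those of Idi1 (0.485) and Hsd17b7 (0.322) were lost.

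The rises covered the pathway from its early to its late steps. In the mevalonate part they included Pmvk (0.56 ± 0.07) and Idi1 (0.29 ± 0.05), and at the branch to squalene Fdft1 (0.40 ± 0.06). Lss, which closes the ring to lanosterol, rose by 0.39 ± 0.07. After lanosterol, Cyp51 (0.43 ± 0.07), Hsd17b7 (0.32 ± 0.06), Ebp (0.32 ± 0.05), Sc5d (0.32 ± 0.06) and Dhcr7 (0.51 ± 0.07) rose as well. Srebf2, which encodes SREBP2, rose by 0.31 ± 0.06. Members that did not pass included Mvd (0.58 ± 0.18), Hmgcs1 (0.07 ± 0.06), Sqle (0.15 ± 0.05) and Insig1, an anchor that holds SREBP2 back (-0.08 ± 0.09).

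CCAAT, the letters bound by the factor NF-Y, which acts with SREBP2 at many sterol genes, was searched in the same windows on both strands. It occurred in 42% of all genes, 49.3% of those that rose and 43.5% of those that fell. Among sterol list members it occurred in 16 of 17 with a window (94.1%), Idi2 being the one without, and in 11 of 11 that rose. It overlaps the letters ATTGGC, present in 76.5% of the list. The windows of the members with the largest rises are printed, with CCAAT or its reverse complement ATTGG in capitals: Tm7sf2 on the minus strand at chr19:6067801-6068100 and Nsdhl on the plus strand at chrX:72918271-72918570.
Tm7sf2: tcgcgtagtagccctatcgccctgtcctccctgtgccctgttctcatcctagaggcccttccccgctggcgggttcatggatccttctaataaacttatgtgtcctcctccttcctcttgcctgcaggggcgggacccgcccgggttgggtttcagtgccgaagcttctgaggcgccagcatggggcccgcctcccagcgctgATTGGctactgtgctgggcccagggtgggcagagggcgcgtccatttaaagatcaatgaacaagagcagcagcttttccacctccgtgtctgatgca
Nsdhl: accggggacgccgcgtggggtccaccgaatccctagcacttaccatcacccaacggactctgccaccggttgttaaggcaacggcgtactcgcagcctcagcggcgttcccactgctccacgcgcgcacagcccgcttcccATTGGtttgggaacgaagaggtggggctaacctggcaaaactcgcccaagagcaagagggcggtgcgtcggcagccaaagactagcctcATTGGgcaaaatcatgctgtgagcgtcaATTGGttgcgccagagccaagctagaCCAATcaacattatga
Tm7sf2 has 1 match, at -47, and Nsdhl has 4, at -109, -20, 9 and 35.

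Fatty acid synthesis changed in part. Of 24 measured members of the SREBP1 and LXR list, 8 rose, 1 fell and 15 did not pass, with a median of 0.09 log2. Acss2, which makes acetyl-CoA from acetate, had values of 7.52 and 7.32 at 3 h and 8.25 and 8.07 at 6 h, 1.67-fold (0.74 ± 0.14, adjusted p = 0.00328). The desaturase Fads2 went from 9.94 and 9.83 to 10.41 and 10.32 (0.48 ± 0.06, adjusted p = 0.000204) and the elongase Elovl6 from 10.29 and 10.21 to 10.67 and 10.65 (0.41 ± 0.06, adjusted p = 0.000239); these calls were stable, whereas Acss2 passed in 3 of the 4 fits. Fads1 (0.28 ± 0.06), Scd1 (0.27 ± 0.05), Acly (0.26 ± 0.06), Elovl5 (0.25 ± 0.05) and Me1 (0.23 ± 0.06) also rose and were not stable. Gpam, the first enzyme of triglyceride synthesis, fell (-0.17 ± 0.05) and lost its call in all 4 fits. Fasn (0.14 ± 0.05) and Srebf1 (-0.04 ± 0.05), which encodes SREBP1, did not pass. The cholesterol exporters Abca1 (-0.28 ± 0.09) and Abcg1 (-0.24 ± 0.12) had negative differences that did not pass either.

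**Figure D2:**
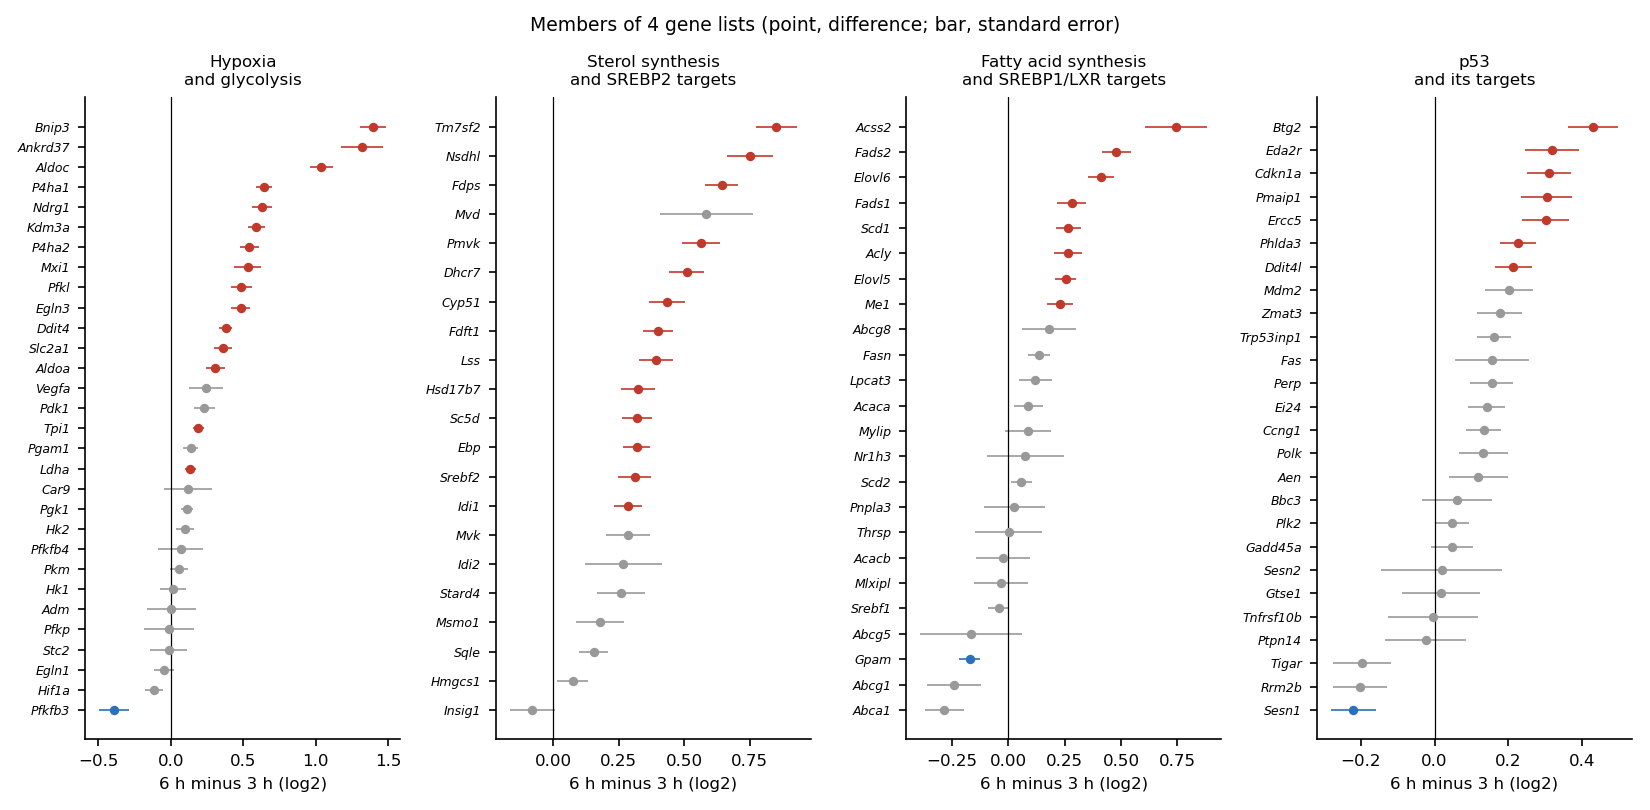
Difference between 6 h and 3 h (log2, x axis) with its standard error for each measured member of 4 gene lists; red, higher, blue, lower and grey, not past the threshold. Of 30 hypoxia and glycolysis members 15 are higher, of 21 sterol members 13, of 24 fatty acid members 8 and of 26 p53 list members 7.

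FOXO targets and inhibitors of the cell cycle moved as follows. In the FOXO and insulin list of 24, 3 members rose and 2 fell. Ccng2, an unusual cyclin induced by FOXO in arrested cells, had values of 9.83 and 9.82 at 3 h and 10.50 and 10.59 at 6 h, 1.64-fold (0.72 ± 0.05, adjusted p = 3.49e-08), which was the rise with the smallest error among the 20 largest. Txnip, an inhibitor of glucose uptake, went from 9.77 and 9.67 to 10.35 and 10.37, 1.56-fold (0.64 ± 0.07, adjusted p = 1.36e-05). Both were stable, as was Ddit4, named above with the hypoxia list. Sgk1 (-0.28 ± 0.05), a kinase downstream of PI3K, and Sesn1 (-0.22 ± 0.06) fell, and other FOXO targets such as Igfbp1 (0.26 ± 0.14) and Pck1 (0.16 ± 0.17) did not pass. All 7 CDK inhibitors had positive differences, with a median of 0.23 log2, and 3 passed: Cdkn2d (0.53 ± 0.12), Cdkn1a (0.31 ± 0.06) and Cdkn2b (0.27 ± 0.06). None of these 3 was stable.

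Of 26 measured members of the p53 list, 7 rose and 1 fell, with a median of 0.14 log2. Btg2, an antiproliferative protein, rose by 0.43 ± 0.07 (SE; adjusted p = 0.000851) and was the stable one. The others were Eda2r (0.32 ± 0.07), Cdkn1a (0.31 ± 0.06), the proapoptotic Pmaip1 (0.30 ± 0.07), Ercc5 (0.30 ± 0.06), Phlda3 (0.23 ± 0.05) and Ddit4l (0.21 ± 0.05), and Sesn1 was the fall. Mdm2, a standard target, differed by 0.20 ± 0.06 and did not pass. In the list for S phase entry and replication, 3 of 38 members fell and none rose: Tk1 (-0.34 ± 0.07), Uhrf1 (-0.24 ± 0.07) and Mcm5 (-0.20 ± 0.05). Of 34 genes of G2/M and mitosis, 4 rose and none fell: Bub1 (0.24 ± 0.05), Cdc20 (0.24 ± 0.05), Cenpe (0.23 ± 0.05) and Top2a (0.14 ± 0.04). No call of these cell cycle lists was stable, and 3 of the 4 mitotic calls were lost in every fit without 1 array.

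The metallothionein genes Mt2 and Mt1 fell. Mt2 had log2 values of 10.20 and 9.80 at 3 h and 8.44 and 7.99 at 6 h, the largest fall on the array, 3.44-fold lower (-1.78 ± 0.24, adjusted p = 0.000205). Mt1 went from 10.86 and 10.56 to 9.89 and 9.61, 1.94-fold lower (-0.96 ± 0.20, adjusted p = 0.00746). Both arrays at 6 h lay below both at 3 h for each gene, as for all 477 falls. Mt2 was stable, whereas Mt1 passed in 2 of the 4 fits, and its second probe set, at a mean level of 5.11, differed by 0.21 log2, so that the mean of both had an adjusted p of 0.181. The genes are close copies, and how far their probes share signal was not tested. Of the other 7 measured members of the zinc list, the zinc importer Slc39a4 rose (10.70 and 10.73 to 11.07 and 11.02; 0.33 ± 0.06, adjusted p = 0.00178), and the metal sensor Mtf1 (-0.14 ± 0.08), the exporter Slc30a1 (0.16 ± 0.20), Slc39a14 (0.09 ± 0.12), Slc39a10 (-0.03 ± 0.04), Slc30a10 (0.21 ± 0.17) and Mt3 (0.15 ± 0.14) did not pass.

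Metal response elements, the sites of the zinc sensor MTF1, are known to hold the letters TGCACNC or TGCGCNC. This search was chosen after the values of the metallothioneins had been seen. On either strand, TGCACNC occurred in 15.4% of all windows and TGCGCNC in 25.6%; among genes that fell the shares were 18.4% and 34.5%, and among genes that rose 11.5% and 29.7%. The windows of the neighbouring genes Mt2, on the plus strand at chr8:94172368-94172667, and Mt1, on the plus strand at chr8:94178839-94179138, are given with these letters in capitals.
Mt2: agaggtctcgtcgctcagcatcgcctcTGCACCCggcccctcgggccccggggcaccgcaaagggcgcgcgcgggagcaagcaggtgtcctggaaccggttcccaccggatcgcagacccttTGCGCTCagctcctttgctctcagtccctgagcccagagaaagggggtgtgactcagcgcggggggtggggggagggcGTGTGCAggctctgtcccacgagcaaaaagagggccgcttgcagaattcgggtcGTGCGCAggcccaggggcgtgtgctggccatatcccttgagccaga
Mt1: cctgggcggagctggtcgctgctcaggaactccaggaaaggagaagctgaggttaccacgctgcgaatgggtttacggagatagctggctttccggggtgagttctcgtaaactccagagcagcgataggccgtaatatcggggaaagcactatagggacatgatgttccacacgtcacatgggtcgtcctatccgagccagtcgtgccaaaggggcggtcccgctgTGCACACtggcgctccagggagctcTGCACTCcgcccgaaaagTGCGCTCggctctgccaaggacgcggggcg
Mt2 holds 4 matches and Mt1 holds 3.

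**Figure D3:**
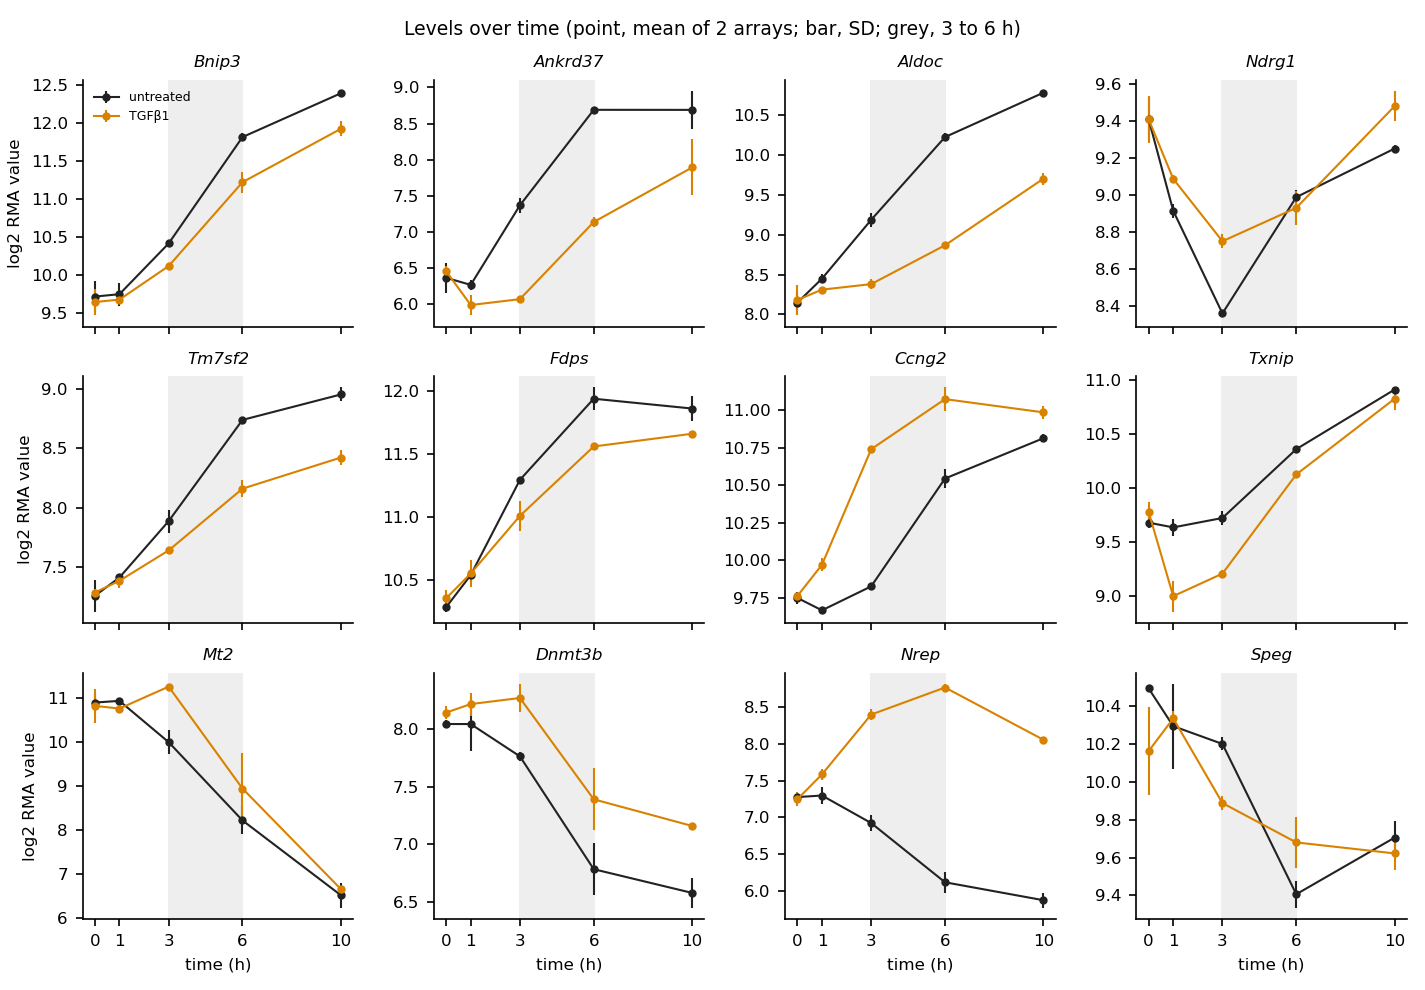
Mean log2 RMA value (points) with SD of 2 arrays (bars) against time in h for 12 genes in untreated cells (black) and cells with TGFβ1 (orange); grey marks 3 to 6 h. In untreated cells Bnip3 rose from 10.4 to 11.8 within the grey band and Mt2 fell from 10.0 to 8.22.

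Large stable falls outside these lists were those of Dnmt3b, Adh7, Nrep, Speg, Nptx1, Afap1 and Pag1. Dnmt3b, a DNA methyltransferase that sets new methylation, had values of 7.79 and 7.73 at 3 h and 6.94 and 6.63 at 6 h, 1.97-fold lower (-0.98 ± 0.12, adjusted p = 0.000112). Adh7, an alcohol and retinol dehydrogenase, went from 10.13 and 9.92 to 9.20 and 9.03, 1.88-fold lower (-0.91 ± 0.10, adjusted p = 1.98e-05). Their second probe sets differed by -0.59 (Dnmt3b) and -0.30 (Adh7) log2 and did not pass. Nrep went from 6.996 and 6.85 to 6.22 and 6.01 (-0.81 ± 0.09, adjusted p = 4.22e-05), the muscle kinase gene Speg from 10.22 and 10.18 to 9.36 and 9.46 (-0.79 ± 0.10, adjusted p = 4.57e-05), and the neuronal pentraxin Nptx1 from 8.49 and 8.34 to 7.68 and 7.63 (-0.76 ± 0.11, adjusted p = 0.00034). Afap1, an actin-associated adaptor (-0.72 ± 0.10), and Pag1, a membrane adaptor for Src family kinases (-0.72 ± 0.11), fell on 1 of 3 and 1 of 4 probe sets. With the mean of a gene's probe sets, Speg (adjusted p = 0.136), Afap1 (0.445) and Pag1 (0.739) no longer passed.

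Several other large changes were measured at low levels or were not stable. Apoa4, an apolipoprotein of gut and liver, had values of 5.79 and 5.68 at 3 h and 4.54 and 4.96 at 6 h (-0.98 ± 0.28, adjusted p = 0.047), and Tjp3, a tight junction scaffold, 5.20 and 4.86 at 3 h and 4.48 and 3.48 at 6 h (-1.06 ± 0.27, adjusted p = 0.0291). Irak1bp1 (3.75 and 3.17 to 4.38 and 4.59; 1.03 ± 0.27, adjusted p = 0.0347), Lrp2bp (0.73 ± 0.21) and Ffar4 (0.63 ± 0.17) rose. Apoa4, Irak1bp1, Lrp2bp and Ffar4 lost their calls in all 4 fits without 1 array, and Tjp3, Pank4 (0.79 ± 0.22), Cxcr5 (0.70 ± 0.18), Unc13c (0.65 ± 0.17), Clcn6 (0.62 ± 0.15), Elac1 (-0.91 ± 0.22), Rp1 (-0.73 ± 0.20), Sptssb (-0.72 ± 0.19), Magef1 (-0.70 ± 0.19) and Vdr (-0.69 ± 0.18) passed in 1. Prdm1 (0.77 ± 0.19), Ppip5k1 (-0.87 ± 0.19), Rmdn2 (-0.75 ± 0.13), Ocrl (-0.74 ± 0.16) and Gbp3 (-0.71 ± 0.15) passed in 2, and the ephrin Efna1 (0.62 ± 0.11) in 3.

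Signalling and stress genes changed in small numbers. Of 29 immediate early genes, which encode fast transcriptional responders to growth signals, 5 rose and none fell. Egr1 went from 8.97 and 8.88 to 9.51 and 9.49, 1.49-fold (0.57 ± 0.08, adjusted p = 0.000205), and Maff (0.45 ± 0.06), Fos (0.44 ± 0.10), Btg2 and Ier3 (0.30 ± 0.05) were the other rises, whereas Jun (-0.07 ± 0.07) and Myc (-0.15 ± 0.06) did not pass. Of 19 MAPK feedback genes, the phosphatase Dusp16 rose (0.30 ± 0.05) and none fell, a share of 5.26%, near the 4.52% called over all genes. Of 23 EGF and PDGF ligands and receptors, 3 fell and none rose: the ErbB ligand Nrg1, from 7.005 and 7.07 to 6.498 and 6.39 (-0.59 ± 0.11, adjusted p = 0.0043), Pdgfa, from 9.73 and 9.74 to 9.32 and 9.27 (-0.44 ± 0.06, adjusted p = 0.000112), and Pdgfc (-0.27 ± 0.05). The stable calls among these lists were Egr1, Maff, Btg2, Dusp16 and Pdgfa; Dusp16 reversed to a difference of -0.01 with the mean of its probe sets. In the list of SMAD targets, Id1 (0.22 ± 0.05) and Id3 (0.32 ± 0.07) rose and Ccn2 (-0.30 ± 0.06), Tgfbi (-0.28 ± 0.08) and Smad7 (-0.25 ± 0.07) fell, of 30 measured, and none was stable.

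Of 22 genes of the unfolded protein response, 4 fell and 1 rose. The falls were Herpud1, from 9.61 and 9.67 to 9.31 and 9.30 (-0.34 ± 0.06, adjusted p = 0.00212), Dnajb9 (-0.30 ± 0.05, adjusted p = 0.00141), Hyou1 (-0.29 ± 0.08) and Sel1l (-0.27 ± 0.07), all parts of folding or degradation in the endoplasmic reticulum, and Herpud1 and Dnajb9 were stable. Crebrf, a regulator of this response, rose (0.46 ± 0.10), and the main chaperone Hspa5 differed by -0.09 ± 0.04. Of 24 NRF2 and glutathione genes, 3 fell, Nqo1 (-0.35 ± 0.06, adjusted p = 0.0016), Gclm (-0.26 ± 0.04, adjusted p = 0.00181) and Gsr (-0.27 ± 0.06), and 2 rose, Ephx1 (0.25 ± 0.05) and Me1. Of 30 genes of the amino acid response, Vldlr (0.54 ± 0.09) and Aldh18a1 (0.25 ± 0.06) rose and Chac1 fell (-0.41 ± 0.11). In the NRF2 and amino acid lists, the stable calls were Nqo1, Gclm and Vldlr. Of 33 genes of autophagy and the lysosome, 7 rose and none fell, led by Gabarapl1, from 10.73 and 10.64 to 11.12 and 11.08 (0.41 ± 0.05, adjusted p = 0.000119), Map1lc3a (0.21 ± 0.05), Neu1 (0.33 ± 0.08) and Ctsd (0.20 ± 0.05); Gabarapl1 was the stable one, and 3 of the 7 lost their calls in every fit without 1 array.

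In glucose storage, the glycogen-targeting subunits of protein phosphatase Ppp1r3c, from 8.88 and 8.80 to 9.46 and 9.38 (0.58 ± 0.10, adjusted p = 0.0014), and Ppp1r3b (0.49 ± 0.11) rose with Pgm1 (0.28 ± 0.06), of 14 genes of gluconeogenesis and glycogen. Of 28 interferon-stimulated genes, 3 fell and none rose: Gbp2, from 7.25 and 7.52 to 6.68 and 6.75 (-0.67 ± 0.13, adjusted p = 0.00376), Gbp3, and the RNA sensor Ddx58 (-0.37 ± 0.06, adjusted p = 0.000982). Among 28 genes of the NF-kB list, the chemokine Cxcl16 (0.41 ± 0.07), Nfkbiz (0.38 ± 0.08) and Nfkb2 (0.34 ± 0.08) rose. Of 32 ribosome biogenesis genes, Rrs1 (-0.38 ± 0.06, adjusted p = 0.000769), Polr1b (-0.31 ± 0.08) and Tsr1 (-0.15 ± 0.04) fell and none rose. Of 19 clock genes, the repressor Nr1d2 (0.35 ± 0.05, adjusted p = 0.000384) and the kinase Csnk1e (0.21 ± 0.05) rose. Of 33 secreted plasma proteins, Alb (0.27 ± 0.06), Fgb (0.34 ± 0.09) and Itih2 (0.25 ± 0.07) rose and Apoa4 fell. In the junction and keratin list of 22, Epcam (0.30 ± 0.06) and Cldn3 (0.27 ± 0.06) rose and Cldn12 (-0.31 ± 0.08) and Jup (-0.22 ± 0.06) fell. Ppp1r3c, Ddx58, Cxcl16, Rrs1 and Nr1d2 were the stable calls of this paragraph. No call of the plasma protein list or of the junction and keratin list was stable.

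Across the 53 lists, 136 of 1062 distinct measured members passed the test, 92 of them higher. Genes that passed were brighter than most, with median levels of 9.52 (higher) and 8.98 (lower) log2, beside 6.31 for all genes. The share called over all genes is therefore not matched to the level of a list's members. No member passed in 11 lists: the proteasome, extracellular matrix, epithelial-mesenchymal transition, Notch, IGF, hepatocyte transcription factor and plasminogen activator lists, the replication-dependent histones (2 measured), and the stellate cell, endothelial and macrophage markers. Among 25 genes of oxidative phosphorylation, Tfam (-0.22 ± 0.06) and Uqcrc2 (-0.21 ± 0.05) fell, and among 23 of the mitochondrial ribosome Mrps2 (-0.33 ± 0.05) did. Single members of several lists passed, which for the lists of 21 to 28 members, as for the mitochondrial ribosome, is a share near the 4.52% called over all genes: Angptl4 (-0.36 ± 0.08) of 22 PPARalpha targets, Cryab (-0.24 ± 0.06) of 15 heat shock proteins, Lgr5 (-0.23 ± 0.07) of 21 Wnt genes, Vil1 (0.25 ± 0.06) of 28 actin genes and Gstt1 (0.35 ± 0.10) of 24 conjugation genes. In the urea cycle and amino acid breakdown list of 20, Fah (0.47 ± 0.09), Asl (0.27 ± 0.06) and Got1 (0.27 ± 0.06) rose. Of 15 genes of the MYC and Max network, Mxi1 and Mxd4 (0.34 ± 0.09) rose, and of 28 acute phase genes, Fgb and the lipopolysaccharide-binding protein Lbp (0.27 ± 0.05). Of 18 genes of mRNA decay and translation control, Btg1 (0.22 ± 0.05) and Btg2 rose and Zfp36l1 (-0.21 ± 0.04) fell. Of 14 members of the BCL2 family, Pmaip1 rose and Mcl1 (-0.18 ± 0.04) fell. Of 16 iron genes, Cp (0.34 ± 0.07) and Ncoa4 (-0.29 ± 0.05) passed. Of 21 integrin and focal adhesion genes, Src (-0.34 ± 0.07) and Fermt2 (-0.24 ± 0.06) fell, and of 31 cytochrome P450 and xenobiotic genes, Cyp2s1 (-0.56 ± 0.13) and Nqo1. Of 21 YAP and TEAD targets, Ccn2 fell, again a share near that of all genes. Mrps2, Mxi1, Lbp, Btg2, Ncoa4 and Nqo1 were the stable calls among these.

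**Figure D4:**
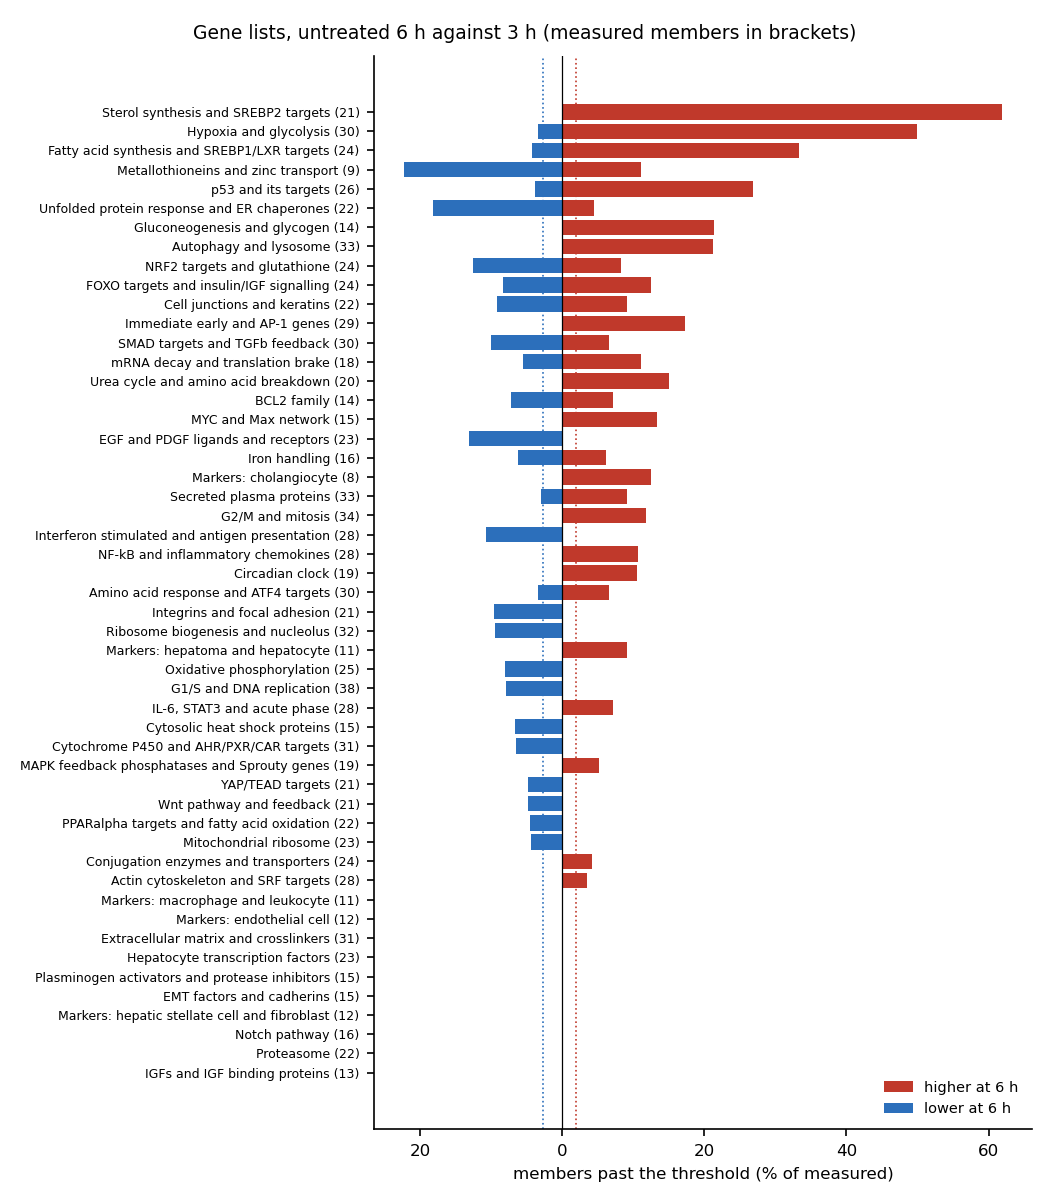
Share of measured members (%, x axis) that were higher (red, right) or lower (blue, left) at 6 h in each list with at least 8 measured members, whose number is in brackets; dotted lines mark the shares over all genes, 1.9% and 2.62%. The sterol list and the hypoxia and glycolysis list have the longest bars, 13 of 21 and 15 of 30 members higher.

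Cells given TGFβ1 went through the same hours on arrays of their own, so their change from 3 to 6 h is a separate measurement, which shares the estimate of spread. In them 1302 genes were higher (7.16%) and 1373 lower (7.55%) at 6 h than at 3 h. Of the 345 genes that rose in untreated cells, 304 (88.1%) had a higher mean at 6 h in treated cells too and 188 (54.5%) passed as higher there, while 10 passed as lower. Of the 477 that fell, 356 (74.6%) had a lower mean in treated cells, 233 (48.8%) passed as lower and 26 as higher. Over all genes, 52.7% had a higher mean in treated cells at 6 h than at 3 h. The median change of the genes that rose was 0.30 log2 in untreated and 0.21 in treated cells, and that of the genes that fell -0.34 and -0.20; the untreated values are those that selected the genes. Stable changes seen in both arms included Bnip3 (1.10 ± 0.09 in treated cells), Ankrd37 (1.07 ± 0.14), Fdps (0.55 ± 0.06), Txnip (0.92 ± 0.07), Mt2 (-2.32 ± 0.24), Dnmt3b (-0.88 ± 0.12) and Adh7 (-1.10 ± 0.10). The sterol list had a median of 0.27 in treated cells and the hypoxia list of 0.17.

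The difference between the arms itself passed for 828 genes (4.55%). Among them were 45 of the 345 rises and 105 of the 477 falls. Those rises and falls were selected by the untreated change, which the difference subtracts. Their shares can therefore not be set against that of all genes. Aldoc rose by 0.49 log2 in treated and 1.04 in untreated cells, a difference of -0.55 ± 0.11 (adjusted p = 0.00591). Ddit4 rose in untreated cells and differed by -0.10 in treated ones (difference -0.48 ± 0.06, adjusted p = 7.08e-05). Ppp1r3c rose more in treated cells, by 1.18 (difference 0.60 ± 0.14, adjusted p = 0.012). Nrep fell in untreated cells and rose by 0.37 in treated ones (difference 1.18 ± 0.13, adjusted p = 2.08e-05). Nrg1 also went in opposite directions, with 0.90 in treated cells (difference 1.49 ± 0.16, adjusted p = 1.26e-05). No member of the sterol list passed this test, and 10 of the 30 hypoxia and glycolysis members did. The 5 genes with the lowest p in this test, Cxcl10, Sntb1, Slc39a10, Lratd2 and Cxxc5, did not pass as changed in untreated cells.

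**Figure D5:**
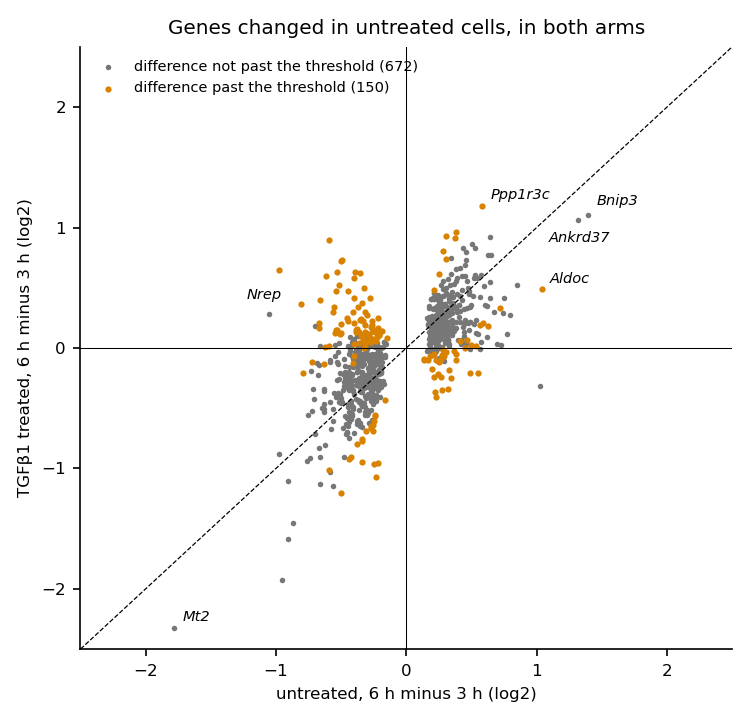
Change from 3 to 6 h in cells with TGFβ1 (log2, y axis) against that in untreated cells (log2, x axis) for the 822 genes called in untreated cells; the dashed line marks equal change, and orange marks the 150 genes whose changes differed between the arms. Most points lie in the lower left and upper right quadrants, with Nrep and Ppp1r3c among the orange points.

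The change was also set against the neighbouring intervals in untreated cells, which share the arrays at 3 h or 6 h with it. The change from 3 to 6 h differed from that over the preceding 3 h for 132 genes (0.726%), a count that became 67 with the mean of probe sets and 28 without a variance trend. Bnip3 rose by 0.70 from 0 to 3 h and by 1.40 from 3 to 6 h (difference 0.70, adjusted p = 0.037), and Ccng2 differed by 0.08 and then 0.72 (0.64, adjusted p = 0.000441). Ndrg1 changed sign, with -1.05 from 0 to 3 h before its rise (1.68, adjusted p = 1.56e-07), as did Nr1d2, with -0.63 (0.97, adjusted p = 3.91e-06). The sterol list had a larger median from 0 to 3 h, 0.83 log2, than the 0.32 from 3 to 6 h, and the difference of Hsd17b7 between the intervals was -1.12 (adjusted p = 1.99e-05). Aldoc differed by 1.04 in the first interval and 1.04 in the second.

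The interval from 6 to 10 h, which is 4 h long and not 3 h, differed from that of 3 to 6 h for 103 genes (0.566%), a count that became 32 with the mean of probe sets and 1 without a variance trend. Ankrd37 rose until 6 h and then had no further change in mean beyond its error of 0.14 (difference -1.32, adjusted p = 0.0145), and Bnip3 rose by 0.58 (-0.82, adjusted p = 0.0136). The sterol list had a median of -0.19 log2 from 6 to 10 h. Fdps (-0.08 from 6 to 10 h; -0.72, adjusted p = 0.0052), Nsdhl (-0.07; -0.82, adjusted p = 0.0132) and Idi1 (-0.35; -0.63, adjusted p = 0.0052) differed between these intervals. Speg (0.30; 1.09, adjusted p = 0.0052) and Nrp1, a coreceptor for semaphorins and VEGF that had a change of -0.63 from 3 to 6 h (0.18; 0.81, adjusted p = 0.0052), had positive values after their falls. Mt2 had values of -0.90, -1.78 and -1.70 over the 3 intervals, and no difference between its intervals passed. Each of these tests uses the arrays of 3 times and has a larger error than the change itself. The change from 3 to 6 h enters each difference, so for genes named by that change the sign was partly set by the choice.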

How the data were processed

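RNA of each culture was labelled with biotin and hybridised to its own Affymetrix array, per the labels' protocols. The authors deposited log2 values made with RMA, per the submitters' processing notes; RMA subtracts background, gives all arrays 1 distribution and summarises each probe set, so differences are relative to other transcripts and dim genes are compressed. For its version, probe set definition and genome build, the entry is "not given in the sources used here", and neither detection calls nor the background level were used. Of 45037 probe sets, 34945 had 1 gene in the platform annotation, 932 several and 9160 none; the latter kinds were left out. For 9009 genes with several probe sets the one with the highest mean stood for the gene. Symbols were updated through RefSeq (GRCm38.p6), and 162 kept the annotation's name.

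Tests used limma 3.58.1 in R 4.3.3: 1 mean per group over 20 arrays (10 residual degrees of freedom), eBayes with a variance trend, Benjamini-Hochberg over 18194 genes in each comparison, threshold 0.05. An error after ± is the standard error. Array number limits the precision, and the labels call the duplicates biological without naming separate cultures or days, so p-values measure the spread between these samples. On simulated data for 18194 genes, 45 and 41 of 50 changes of -0.8 and 0.8 log2 and 24 and 27 of 50 of -0.4 and 0.4 were recovered, with 9 false calls. The simulated noise was normal, with each gene's own spread, and independent between genes and arrays. Deviations that many genes of an array share were left out, so the false calls on the real arrays may be more. Named were the 20 largest rises and falls with arrays of both times apart, up to 4 called members of the 12 lists with the highest share called, the first 2 measured members of a list or others needed to spell out its count, and the 5 lowest p of each test of a difference. Members and lists were chosen with earlier results of these data known, and the alternatives are given in the closing section.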

Additional observations from a re-analysis of the deposited data

Results flagged for a closer look

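Named genes were picked out here because their change from 3 to 6 h differed, past the threshold, from the change in TGFβ1-treated cells or from the neighbouring interval; with 2 arrays a group no single array could be tested as an outlier. They come from the genes named for the size of their change, for their rank in the 12 lists with most calls or for the lowest p of that test. Size and rank rest on the untreated change from 3 to 6 h, which enters each difference, so the choice favours genes that differ. Between the arms the changes differed for 22 of the named genes, given as the treated minus the untreated log2 change. The treated change was the higher one for Apoa4 (1.63), Nrep (1.18), Lratd2 (0.97), Slc39a10 (0.88), Afap1 (0.61), Ppp1r3c (0.60), Speg (0.59), Jup (0.47) and Ercc5 (0.44). It was the lower one for Cxcl10 (-1.95), Sntb1 (-1.64), Cxxc5 (-1.24), Aldoc (-0.55), Ddit4 (-0.48), Ndrg1 (-0.45), Maff (-0.45), Herpud1 (-0.44), Gclm (-0.44), Ccng2 (-0.38), Kdm3a (-0.38), Elovl6 (-0.35) and Phlda3 (-0.33).

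Without a variance trend, 28 genes in place of 132 differed from the preceding interval and 1 in place of 103 from the next. Against the change from 0 to 3 h, the change from 3 to 6 h was more positive for Ndrg1 (1.68), Nr1d2 (0.97), Oga (0.81), Bnip3 (0.70), Ccng2 (0.64) and Txnip (0.60). It was more negative for Hsd17b7 (-1.12), Adh7 (-0.87), Slc39a10 (-0.76), Dnajb9 (-0.52), Nqo1 (-0.51) and Jup (-0.44). The change from 6 to 10 h was more positive than that from 3 to 6 h for Speg (1.09), Nrp1 (0.81), Afap1 (0.79) and Sgk1 (0.48), all of which had fallen. It was more negative for Ankrd37 (-1.32), Bnip3 (-0.82), Nsdhl (-0.82), Hsd17b7 (-0.80), Elovl6 (-0.73), Fdps (-0.72), Tm7sf2 (-0.64), Idi1 (-0.63), Pmvk (-0.58), Ccng2 (-0.45) and Ddit4 (-0.33), of which 6 are enzymes of sterol synthesis. This difference subtracts the change from 3 to 6 h. For genes named by that change, a positive sign after a fall and a negative sign after a rise were favoured by the choice.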

How the results depend on the processing

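The counts of 345 higher and 477 lower genes became 217 and 255 with the mean of a gene's probe sets (192 and 197 of the original calls were kept) and 132 and 166 without a variance trend. Leaving out 1 array of the 4 gave 107 to 202 higher and 110 to 398 lower genes; the lone array was then taken to vary like the other groups. Within 1.5 times were the further quantile normalization (454 and 416), centring on array medians (252 and 494) and the 4 arrays alone (262 and 378). The 10 untreated arrays alone (292 and 384) and array weights (307 and 424) were too. Other settings tested unlike sets, so their counts cannot be set directly beside 345 and 477. With only genes above the median level, 438 and 661 passed. With each of the 45037 probe sets tested on its own, 340 and 513 probe sets passed. With the replicate number as a block, 396 and 545 genes passed; same-numbered arrays did not deviate together (correlations of -0.20 to 0.21 over 45 pairs of groups, 5 of them over 0.1), so the numbers show no pairing. The 828 genes that differed between the arms became 442 with the mean of probe sets and 375 without the trend. The 132 genes that differed from the preceding interval became 80 with median centring, 67 with the mean of probe sets and 28 without the trend, and the 103 that differed from the next interval 32 with the mean of probe sets and 1 without the trend. Of 159 named calls, 63 were lost with the mean of probe sets, 81 without the trend and 57 to 86 without 1 array, and none with the block. Bub1 (-0.078) and Dusp16 (-0.0078) reversed with the mean of probe sets. The causes were not tested. With 2 arrays a group, and a median error of 0.13 log2, changes near 0.4 log2 were recovered in about 24 to 27 of 50 cases simulated with independent noise.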

Other observations

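Several genes outside the lists changed with small errors. They were chosen after their values were seen, as the 8 with the lowest adjusted p in each direction. Only genes that have a full symbol, are in no list and are not named above were considered. Higher at 6 h were the neuritin gene Nrn1 (0.57 ± 0.07), the mitochondrial citrate carrier Slc25a1 (0.49 ± 0.06), Fam162a (0.46 ± 0.06), the mitochondrial adenylate kinase Ak4 (0.60 ± 0.09), the dioxygenase Jmjd6 (0.45 ± 0.06), the inflammatory caspase Casp4 (0.52 ± 0.08), the transcriptional repressor Hbp1 (0.33 ± 0.05) and Sh3glb1 (0.31 ± 0.04). Lower were Ndufaf4, an assembly factor of respiratory complex I (-0.63 ± 0.07), Lancl2 (-0.63 ± 0.06), the methionine sulfoxide reductase Msrb3 (-0.59 ± 0.07), the splicing factors Srsf2 (-0.47 ± 0.05) and Sfpq (-0.41 ± 0.05), Ankrd46 (-0.43 ± 0.06), Cdca7 (-0.40 ± 0.05) and Wdr6 (-0.37 ± 0.05). With the mean of a gene's probe sets, Fam162a, Ak4, Hbp1, Sh3glb1, Sfpq and Cdca7 no longer passed.

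The enzymes that add and remove O-linked N-acetylglucosamine on proteins had differences of opposite sign. Ogt, which adds the sugar, fell by 0.30 log2 (adjusted p = 0.00174 in limma's test), whereas Oga, which removes it, differed by 0.17 ± 0.05 (adjusted p = 0.0545) and did not pass; Oga had gone from 12.08 at 0 h to 11.44 at 3 h. Ogt too was picked after its value was seen, and its call was lost with the mean of its probe sets.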
